A study of Mus musculus with 12 samples.

Results

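The genes described here are 10 enzymes and complex subunits that place, remove or act on DNA methylation and histone marks, taken by gene symbol from the 35855 genes of the data. They are the DNA methyltransferases Dnmt1 and Dnmt3a, the dioxygenases Tet2 and Tet3, the Polycomb subunits Ezh2 and Suz12, and the histone deacetylases Hdac1, Hdac2, Hdac3 and Hdac7. They were measured in 12 bulk RNA-seq libraries of sorted mouse splenic CD8 T cells on the C57BL/6 background, in 4 groups of 3 libraries. The groups were wild-type (WT) cells and cells labelled TCF-7 cKO (TCF-1 cKO below), each before transplant and at day 7 post-transplant. TCF-1 cKO mice carry a floxed Tcf7, the gene of the transcription factor TCF-1, and the CD4cre transgene, which is active from the CD4 and CD8 double-positive stage of the thymus on and so deletes Tcf7 in CD8 T cells and CD4 T cells alike. No library with CD4cre alone was analysed here. The day 7 cells were donor CD8 T cells sorted back from spleens of irradiated BALB/c recipients that had received allogeneic CD3 T cells, an allotransplant used as a model of graft-versus-host disease. Ages of the mice and the number of mice per library are not in the labels.

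DNMT3A places methyl groups on unmethylated cytosines and DNMT1, brought to the replication fork by UHRF1, copies the pattern onto the new strand, while TET enzymes oxidize methylcytosine as a first step of its removal. EZH2 is the catalytic subunit and SUZ12 a core subunit of Polycomb repressive complex 2 (PRC2), which methylates histone H3 at silent genes. HDAC1 and HDAC2 are close paralogs that remove acetyl groups from histones within the NuRD, Sin3 and CoREST complexes, HDAC3 is the deacetylase of the NCoR and SMRT corepressors, and HDAC7 is a class IIa member that shuttles between nucleus and cytoplasm in T cells. In activated CD8 T cells, PRC2 and the DNA methyltransferases are known for silencing genes of the naive and memory state, and TCF-1 itself has been described as having HDAC activity.

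Promoter sequences are shown because the deleted factor binds DNA at TCF motifs and because Dnmt1, Ezh2 and Suz12 are genes of dividing cells with known E2F control. The motifs searched on both strands were CTTTGNN with A or T at each N for TCF and TTTCCCGC, TTTCGCGC, TTTGCCGC and TTTGGCGC for E2F, in the 250 bases before each start in RefSeq (GRCm38.p6). Entries were found for 8 members with 15 starts in all. A TCF match was found in 3 of the 15 windows (20.0%), against 14.8% of all 32851 windows, and an E2F match in 2 (13.3%), against 1.86%. The matches stand in capitals below, with 10 bases on each side, each on the strand of its gene.
Suz12, TCF, chr11:79992893-79992919 (+): gcgaattcagTTCAAAGaggcgtccgg
Suz12, E2F, chr11:79992877-79992904 (+): gacccctcatTTTCCCGCgaattcagtt
Ezh2, TCF, chr6:47595246-47595272 (-): ttggcaaaagAACAAAGacagcgactg
Dnmt1, TCF, chr9:20960071-20960097 (-): caagtcctccTTCAAAGggcctacatc
Dnmt1, E2F, chr9:20952825-20952852 (-): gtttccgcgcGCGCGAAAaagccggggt
The Suz12 stretches overlap, with the matches 203 and 219 bases before the start counted to the first base of each, and the Dnmt1 matches belong to separate starts. The windows of the Ezh2 match and of the Dnmt1 E2F match overlap an exon annotated in GENCODE, and both matches lie within the gene spans given below. A match is a string of letters, not a measured binding site. No match was found in the windows of Dnmt3a, Tet2, Tet3, Hdac2 and Hdac7, and Hdac1 and Hdac3 had no entry. The median number of CpG dinucleotides in a window was 23 for the members and 6 for all windows.

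The totals ran from 4520270 to 9577076 estimated counts in TCF-1 cKO libraries before transplant and from 18184814 to 32657005 in the other 9, so that 3 counts, the least taken as detected, equal 0.0922 to 0.667 CPM (counts scaled to library size). Levels are given below as CPM normalized by edgeR's TMM factors over all 12 libraries, and every member was above 3 counts in every library. Tcf7 lay at 76.1 to 166 normalized CPM in WT and 26.3 to 62.9 in TCF-1 cKO libraries before transplant. At day 7 the library labelled WT replicate 3 held 10.7 normalized CPM, below the 13.7 to 14.6 of the TCF-1 cKO libraries, while WT replicates 1 and 2 held 26.9 and 26.5. One label of TCF-1 cKO day 7 replicate 2 names CD4 T cells, though its title names CD8 T cells, and its Cd4 level of 2.04 normalized CPM and Cd8a level of 622 lay among those of the other day 7 libraries. The pre-transplant libraries held B cell markers at a summed 10361 to 18544 CPM and erythroid markers at 4459 to 26445 CPM, against 233 to 481 and 205 to 1193 at day 7, with all 7 B cell markers called lower in both stage comparisons and 6 (WT) and 5 (TCF-1 cKO) of 6 erythroid markers. Myeloid markers summed to 1273 to 3188 CPM before transplant and 68.1 to 199 at day 7, and no marker of these lists was at 0 in any group. Markers of CD8 T cells summed to 2032 to 2394 CPM in WT and 852 to 1132 in TCF-1 cKO libraries before transplant and to 5041 to 7262 at day 7, and CD4 T cell markers to 187 to 225 in WT and 80.7 to 99.8 in TCF-1 cKO libraries before transplant. In normalized CPM, Cd4 was at 85.7 to 110 and Cd8a at 87.2 to 154 in WT libraries before transplant. In TCF-1 cKO libraries before transplant they were at 22.9 to 48.7 and 26.5 to 30.9. B cell markers thus exceeded CD8 T cell markers in every group before transplant. These levels move with stage, and before transplant the T cell markers move with genotype too. Their part in the stage and genotype differences below was not tested. In bulk RNA fewer cells of a type and less RNA per cell cannot be told apart. Below, WT cells and TCF-1 cKO cells mean the libraries so labelled, with all the RNA they hold.

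Between stages most of the 10 genes changed in TCF-1 cKO cells and fewer did in WT cells, whereas between genotypes few did. From before transplant to day 7, 8 members passed a false discovery rate (FDR) of 0.1 in TCF-1 cKO cells, 5 higher and 3 lower, where 36.5% of all 18535 tested genes passed (19.7% higher and 16.8% lower). With library totals in place of TMM this was 7, of which 2 were higher and 5 lower, beside 1660 higher and 10608 lower of the 18535 genes. In WT cells 4 passed, Ezh2 and Hdac3 higher and Tet2 and Tet3 lower, where 20.0% of 16790 genes passed (9.7% higher and 10.3% lower). With library totals 0 members were higher and 2 lower in WT cells, beside 717 higher and 4136 lower of the 16790 genes. At day 7, 2 members, Dnmt1 and Hdac7, were lower in TCF-1 cKO than in WT, where 17.9% of 16026 genes passed (15.4% lower and 2.51% higher). Directions at day 7 rest on the labels. The Tcf7 level of the library labelled WT replicate 3 lay below those of the TCF-1 cKO libraries. TCF-1 cKO libraries still held Tcf7 counts, and WT libraries held less at day 7 than before transplant. The Tcf7 level alone therefore does not settle the genotype of that library. Before transplant 0 members passed in edgeR's quasi-likelihood test, where 0.0373% of 18757 genes did. There 1 member, Hdac7, and 17.7% of all genes had an unadjusted p below 0.05. DESeq2's Wald test called 0 members there too, beside 1455 of the 18757 genes. The change of the genotype difference between stages, tested as an interaction over all 12 libraries, was called for 0 members and 0.00465% of 21526 genes, with 1 member (Hdac7) and 15.7% of genes at an unadjusted p below 0.05. DESeq2's Wald test called 1 member in the interaction, again Hdac7, beside 1713 of the 21526 genes. The median log2 fold change of the 10 genes was 0.62 in the TCF-1 cKO stage comparison (all genes -0.29), 0.48 in the WT stage comparison (all genes -0.30), 0.36 at day 7 (all genes 0.15) and -0.42 before transplant (all genes 0.05). These medians changed sign with library totals in the TCF-1 cKO (-1.004, all genes -1.89) and WT stage comparisons (-0.58, all genes -1.25). With counts scaled from TPM they did so in the TCF-1 cKO stage comparison (-0.14), at day 7 (-0.27) and before transplant (0.073), and with the GC and length offset at day 7 (-0.083). The comparisons share libraries, so none of them is a repeat of another.

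**Figure D1:**
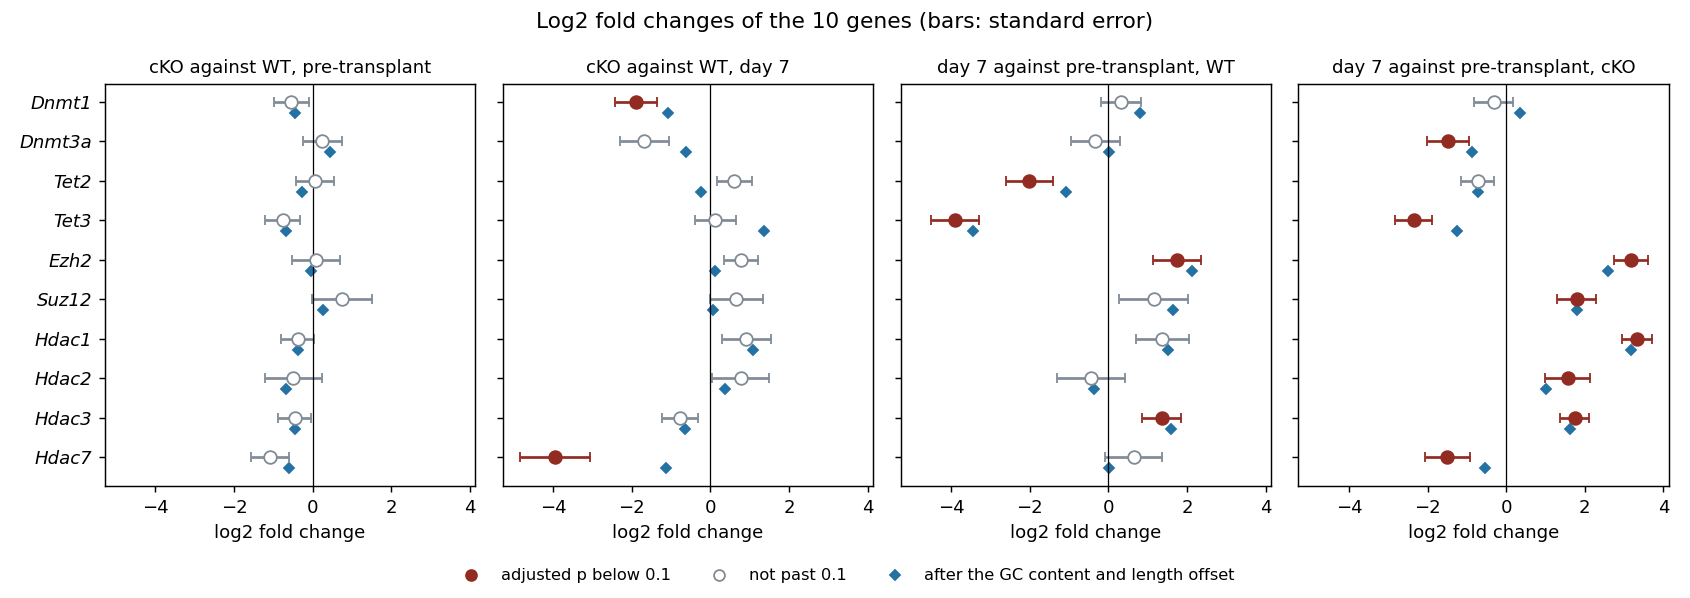
Log2 fold changes of the 10 genes in 4 comparisons, with bars of 1 standard error, filled red points for genes past an FDR of 0.1 and blue diamonds for the value after removal of each library's trend on GC content and length. In the day 7 comparison of genotypes Hdac7 moves from -3.96 to -1.14 with that removal, and in the TCF-1 cKO stage comparison Hdac1 and Ezh2 stand at 3.18 and 2.60 after it.

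Dnmt1 (ENSMUSG00000004099, chromosome 9, 20907209 to 20959888, GRCm38), the maintenance methyltransferase, was lower in TCF-1 cKO than in WT cells at day 7. Its level was 199, 103 and 130 normalized CPM in WT replicates 1 to 3 and 76.9, 30.3 and 38.7 in TCF-1 cKO replicates 1 to 3. Every TCF-1 cKO library lay below every WT library, as it did for 17.3% of genes in that direction. The log2 fold change was -1.89 (standard error 0.54, edgeR adjusted p = 0.0614), and 143.9 ± 49.4 (SD, n = 3) stood against 48.6 ± 24.8 (SD, n = 3). The call was lost without any 1 of WT replicates 1 and 2 or TCF-1 cKO replicates 1 to 3, with adjusted p from 0.109 to 0.237, with library totals in place of TMM (-1.45) and after the GC content and length offset (-1.08), and it held without the library labelled WT replicate 3 (adjusted p = 0.027). Before transplant Dnmt1 stood at 70.3, 113 and 113 in WT and 42.0, 41.9 and 97.6 in TCF-1 cKO libraries, which overlap (log2 fold change -0.53, standard error 0.44, edgeR adjusted p = 0.506). Between stages it passed in neither genotype, at 0.32 (standard error 0.51) in WT and -0.32 (standard error 0.50) in TCF-1 cKO cells, though the latter was called lower with library totals (-1.86, adjusted p = 0.00489) and with counts scaled from TPM (-1.05, adjusted p = 0.0411). Uhrf1, which recruits DNMT1 to newly copied DNA, was at 301, 338 and 89.6 normalized CPM in WT and 57.2, 44.3 and 43.9 in TCF-1 cKO libraries at day 7. It was thus lower in all 3 TCF-1 cKO libraries, again as for 17.3% of genes, at -2.65 on the log2 scale (standard error 0.62, edgeR adjusted p = 0.0448), and -1.46 after the offset (adjusted p = 0.134).

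Dnmt3a (ENSMUSG00000020661, chromosome 12, 3806007 to 3914443), a de novo methyltransferase, was lower at day 7 than before transplant in TCF-1 cKO cells. Its level was 37.3, 24.0 and 29.9 normalized CPM before transplant and 19.8, 5.34 and 7.86 at day 7 in TCF-1 cKO libraries. The 2 ranges did not overlap, as in 23.9% of genes in that direction, and the log2 fold change was -1.48 (standard error 0.54, edgeR adjusted p = 0.0703). The call was lost after the offset (-0.87), in the fit over 12 libraries (-1.47, adjusted p = 0.101), with protein-coding transcripts alone (-1.62, adjusted p = 0.141) and without 1 of TCF-1 cKO pre-transplant replicate 1 (-1.24) or day 7 replicates 2 (-1.11) and 3 (-1.24). In WT cells the level was 15.3, 43.1 and 30.9 before transplant and 38.1, 26.9 and 17.4 at day 7, which gave -0.33 on the log2 scale (standard error 0.62, edgeR adjusted p = 0.775). The stage differences of the genotypes differed by -1.36 (standard error 0.82, edgeR adjusted p = 0.422 for the interaction). The genotypes differed at day 7 by -1.68 (standard error 0.63, edgeR adjusted p = 0.127), and TCF-1 cKO replicate 1 overlapped the library labelled WT replicate 3. DESeq2's Wald test called this difference (-1.72, adjusted p = 0.0426). Dnmt3b, the other de novo enzyme, was at 7.75 to 13.6 normalized CPM in all 6 day 7 libraries and passed in no comparison.

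Tet3 (ENSMUSG00000034832, chromosome 6, 83362373 to 83459084) had the largest decrease between stages of the 10 genes in both genotypes. WT libraries held 50.4, 49.7 and 65.2 normalized CPM before transplant and 4.38, 2.96 and 5.90 at day 7, and TCF-1 cKO libraries 24.8, 18.2 and 43.0 and then 5.25, 6.12 and 5.44. All 6 day 7 libraries lay below all 6 pre-transplant libraries (16.2% of genes in WT and 23.9% in TCF-1 cKO cells fell without overlap of the stages). The log2 fold change was -3.90 (standard error 0.60, edgeR adjusted p = 0.00326) in WT and -2.35 (standard error 0.47, edgeR adjusted p = 0.00522) in TCF-1 cKO cells, and it passed under every alternative and without any single library in both. Its values after the offset were -3.45 and -1.25. Before transplant the TCF-1 cKO libraries all lay below the WT libraries, as in 14.2% of genes (16.1% lay above), but the log2 fold change of -0.76 (standard error 0.44) did not pass (edgeR adjusted p = 0.355). The gene whose level ran most like that of Tet3 over the 12 libraries was Igkc, the immunoglobulin kappa constant gene of B cells (Pearson's r = 0.987). That likeness is a description, over libraries that fall into 2 stages.

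Tet2 (ENSMUSG00000040943, chromosome 3, 133463679 to 133545139) fell in WT cells, from 22.5, 33.7 and 47.5 normalized CPM before transplant to 10.02, 8.04 and 12.8 at day 7. Its log2 fold change was -2.00 (standard error 0.59, edgeR adjusted p = 0.0486), without overlap of the libraries, as in 16.2% of genes in that direction. The call was lost after the offset (-1.08), with counts scaled from TPM (-0.84), with protein-coding transcripts alone (-2.32, adjusted p = 0.255) and without 1 of 4 libraries, WT pre-transplant replicates 2 and 3 and day 7 replicates 1 and 2 (-2.03 to -1.62). In TCF-1 cKO cells the levels were 23.1, 40.2 and 28.6 and then 22.2, 12.95 and 20.97, with no overlap (as in 23.9% of genes in that direction) but a log2 fold change of -0.72 (standard error 0.42, edgeR adjusted p = 0.232). This fall passed with library totals (-2.36, adjusted p = 0.00183) and with counts scaled from TPM (-1.13, adjusted p = 0.0869), and the interaction was 1.04 (standard error 0.69, edgeR adjusted p = 0.464). At day 7 all 3 TCF-1 cKO libraries lay above the 3 WT libraries, as in 23.5% of genes, at a log2 fold change of 0.61 (standard error 0.45, edgeR adjusted p = 0.405). That value turned to -0.24 after the offset and to -0.49 with protein-coding transcripts alone. Tet1, the remaining family member, was at 1.95 to 15.2 normalized CPM and passed in no comparison.

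Ezh2 (ENSMUSG00000029687, chromosome 6, 47530139 to 47595341), whose TCF match is printed above, rose in normalized CPM from before transplant to day 7 in both genotypes. WT libraries went from 9.86, 8.92 and 25.1 normalized CPM to 53.9, 44.1 and 79.6, and TCF-1 cKO libraries from 18.3, 10.5 and 10.8 to 153, 91.7 and 117. Each genotype's day 7 libraries thus lay above its pre-transplant libraries, as for 15.9% of genes in WT and 23.1% in TCF-1 cKO cells. The rise was 3.18 on the log2 scale in TCF-1 cKO (standard error 0.42, edgeR adjusted p = 6.5e-04), which passed under every alternative and without any single library. In WT it was 1.75 (standard error 0.62, edgeR adjusted p = 0.0891), and there the call was lost with library totals (0.88), with counts scaled from TPM (1.18), with protein-coding transcripts alone (2.02) and without WT pre-transplant replicates 1 (1.53) or 2 (1.48) or day 7 replicate 1 (2.06). At day 7 the TCF-1 cKO libraries all lay above the WT libraries, as for 23.5% of genes, at 120.3 ± 30.6 (SD, n = 3) against 59.2 ± 18.3 (SD, n = 3). The log2 fold change of 0.78 (standard error 0.42) did not pass (edgeR adjusted p = 0.263) and was 0.11 after the offset. The difference between the 2 rises was 1.17 (standard error 0.72, edgeR adjusted p = 0.428 for the interaction). Mean TPM of Ezh2, an abundance scaled for length and depth without TMM factors, hardly moved. It was 17.8 before transplant and 18.2 at day 7 in WT cells, and 32.4 and 33.1 in TCF-1 cKO cells.

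Ezh1, the paralog of Ezh2 that prevails in resting cells, moved the opposite way. It went from 73.0, 86.7 and 131 normalized CPM to 15.4, 14.8 and 5.90 in WT libraries and from 34.5, 31.3 and 35.8 to 12.9, 5.73 and 10.6 in TCF-1 cKO libraries. The log2 fold changes were -3.23 (standard error 0.63, edgeR adjusted p = 0.0087) and -1.81 (standard error 0.44, edgeR adjusted p = 0.0132). All 6 day 7 libraries lay below all 6 pre-transplant libraries, the reverse of what Ezh2 showed. Without overlap of the stages 16.2% of genes fell in WT and 23.9% in TCF-1 cKO cells.

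Suz12 (ENSMUSG00000017548, chromosome 11, 79993106 to 80034123) rose in TCF-1 cKO cells, from 11.4, 9.56 and 3.87 normalized CPM to 29.7, 31.0 and 26.2. In log2 terms the rise was 1.79 (standard error 0.49, edgeR adjusted p = 0.024), and it fell under the threshold with library totals (0.11), counts scaled from TPM (0.78) and the fit over 12 libraries (adjusted p = 0.105). In WT cells the levels were 3.38, 3.55 and 10.9 before transplant and 16.5, 3.36 and 28.04 at day 7. WT replicate 2 thus stayed at its group's pre-transplant level, and the log2 fold change of 1.16 (standard error 0.88) did not pass (edgeR adjusted p = 0.430). The interaction was 0.38 (standard error 1.01, edgeR adjusted p = 0.885). Eed, the third core subunit, went from 9.76, 7.05 and 6.52 to 22.4, 20.5 and 26.4 in TCF-1 cKO cells, which is 1.56 on the log2 scale (standard error 0.42, edgeR adjusted p = 0.0215), with 0.06 after the offset. In WT cells it was at 17.95, 2.11 and 5.26 and then at 6.12, 3.04 and 21.9, which overlap (standard error of the log2 fold change 0.96).

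**Figure D2:**
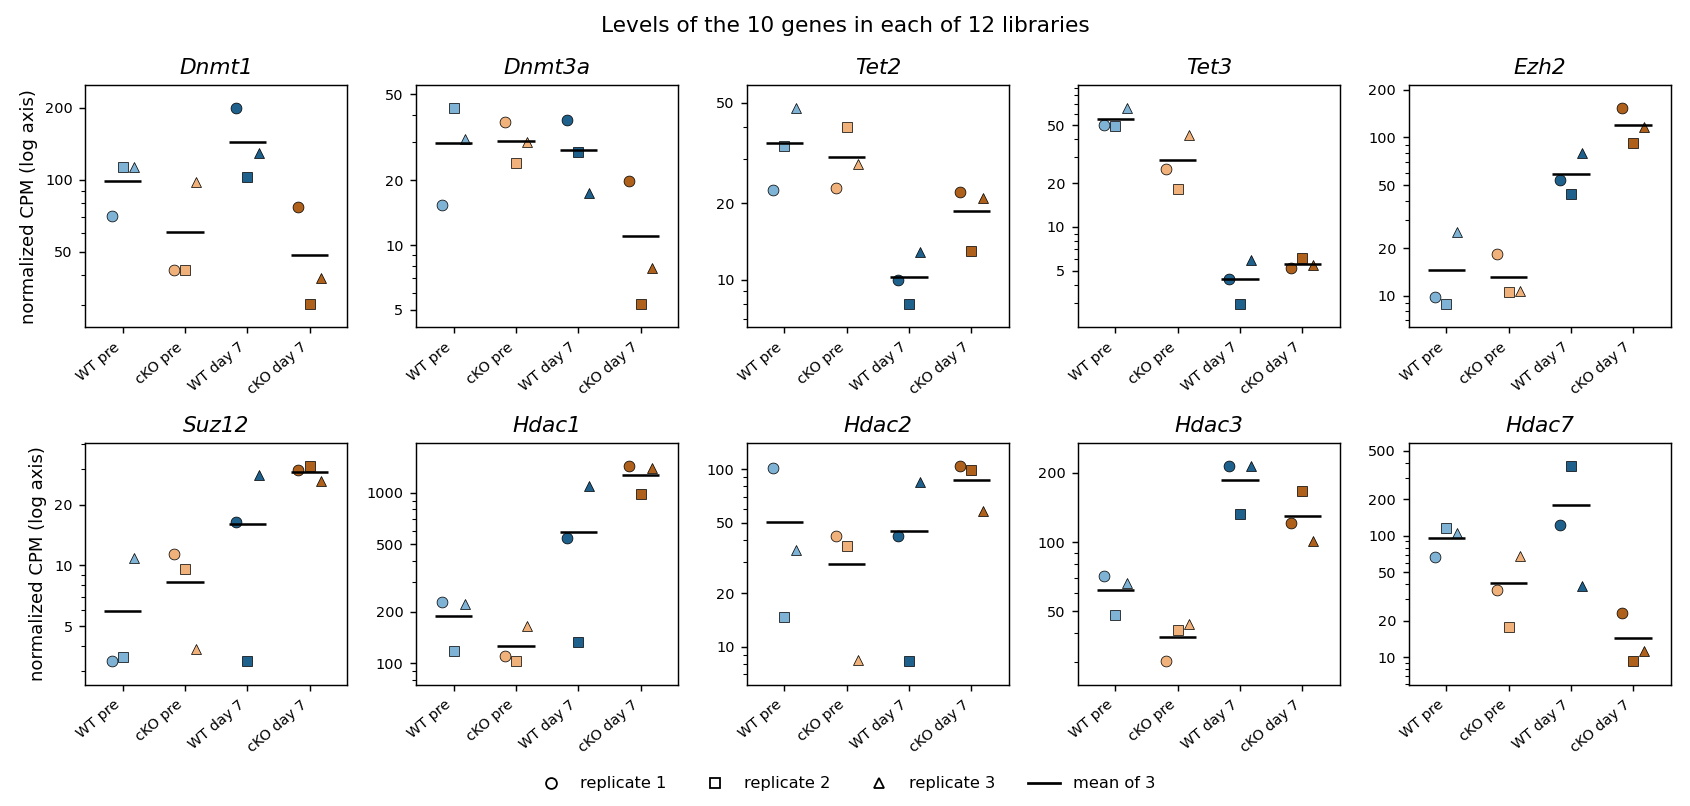
Normalized CPM of the 10 genes (log axis) in each of the 12 libraries, by group, with a bar at the mean of 3 libraries and the replicate number as the symbol. Tet3 is lower and Ezh2 higher in all 6 day 7 libraries than in the 6 pre-transplant libraries, and day 7 WT replicate 2 (square) is the lowest of its group for Suz12, Hdac1 and Hdac2 and the highest for Hdac7.

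Hdac1 (ENSMUSG00000028800, chromosome 4, 129516104 to 129542713) had the largest increase of the 10 genes between stages in TCF-1 cKO cells. There it went from 110.3, 102 and 166 normalized CPM to 1437, 982 and 1389. The log2 fold change of 3.33 (standard error 0.38, edgeR adjusted p = 3.0e-04), a 10.03-fold higher level with TMM, passed under every alternative and without any single library. Its size depended on the scaling. With library totals it was 1.76, and mean TPM was 154 before transplant and 325 at day 7. In WT cells it was 227, 117 and 222 before transplant and 540, 134 and 1093 at day 7, so that replicate 2 did not leave the pre-transplant range. The WT log2 fold change of 1.37 (standard error 0.68) did not pass (edgeR adjusted p = 0.218), but did without that library (2.10, adjusted p = 0.0144) and in the fit over 12 libraries (1.64, adjusted p = 0.0799). The genotypes differed at day 7 by 0.91 (standard error 0.63, edgeR adjusted p = 0.370), with the library labelled WT replicate 3 inside the TCF-1 cKO range. The interaction was 1.69 (standard error 0.83, edgeR adjusted p = 0.334), and 2.50 without the library labelled WT day 7 replicate 3 (adjusted p = 0.0828).

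Hdac2 (ENSMUSG00000019777, chromosome 10, 36974544 to 37001889), the paralog of Hdac1, varied widely within 3 of the groups. It was at 102, 14.7 and 35.0 normalized CPM in WT and 42.3, 36.9 and 8.42 in TCF-1 cKO libraries, and at 42.1, 8.27 and 84.6 and then 104, 98.7 and 58.3 at day 7. The rise in TCF-1 cKO cells was 1.56 (standard error 0.58, edgeR adjusted p = 0.0739). That call was lost after the offset (1.02), in the fit over 12 libraries (adjusted p = 0.207), with protein-coding transcripts alone (1.29) and without 1 of TCF-1 cKO pre-transplant replicate 2 (1.87) or day 7 replicates 1 (1.45) and 2 (1.51), and with library totals the value turned to -0.15. In WT cells it was -0.43 (standard error 0.86, edgeR adjusted p = 0.787), and the interaction was 1.75 (standard error 1.13, edgeR adjusted p = 0.453).

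Hdac3 (ENSMUSG00000024454, chromosome 18, 37935844 to 37955016) was higher at day 7 in both genotypes. WT libraries went from 70.9, 48.1 and 66.2 normalized CPM to 214, 133 and 213, and TCF-1 cKO libraries from 30.2, 41.3 and 43.9 to 121, 166 and 101. All 6 day 7 libraries lay above all 6 pre-transplant libraries (15.9% of genes in WT and 23.1% in TCF-1 cKO cells rose without overlap of the stages). The log2 fold change was 1.74 (standard error 0.37, edgeR adjusted p = 0.00724) in TCF-1 cKO cells, lost with library totals (0.16). It was 1.36 (standard error 0.49, edgeR adjusted p = 0.0956) in WT cells, near the threshold, and lost with library totals (0.44), with no filter on low counts (1.46), with counts scaled from TPM (1.31) and without 1 of 4 libraries, WT pre-transplant replicates 1 to 3 or day 7 replicate 1 (1.20 to 1.47). Before transplant the TCF-1 cKO libraries all lay below the WT libraries, as in 14.2% of genes, at a log2 fold change of -0.46 (standard error 0.41, edgeR adjusted p = 0.539).

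Hdac7 (ENSMUSG00000022475, chromosome 15, 97792664 to 97844502), the only class IIa deacetylase among the 10 genes, had the largest genotype difference. At day 7 it stood at 123, 376 and 38.5 normalized CPM in WT replicates 1 to 3 and at 23.0, 9.26 and 11.2 in TCF-1 cKO replicates 1 to 3. The groups did not overlap, as for 17.3% of genes in that direction, though the library labelled WT replicate 3 lay nearer to TCF-1 cKO replicate 1 than to either WT library. The level was 15.6-fold lower, a log2 fold change of -3.96 (standard error 0.89, edgeR adjusted p = 0.0448). It was no longer called after the offset (-1.14, adjusted p = 0.193) nor without any 1 of WT replicates 1 and 2 or TCF-1 cKO replicates 1 to 3 (-4.52 to -2.91, adjusted p from 0.109 to 0.178). Before transplant it stood at 66.7, 117 and 105 in WT and 35.8, 17.8 and 68.7 in TCF-1 cKO libraries, with a difference of -1.08 on the log2 scale (standard error 0.49, edgeR adjusted p = 0.278), which passed without TCF-1 cKO replicate 3 (-1.69, adjusted p = 0.0589). Between stages Hdac7 was called lower in TCF-1 cKO cells, with a log2 fold change of -1.49 (standard error 0.57, edgeR adjusted p = 0.0814). The stages overlapped there, as day 7 replicate 1 (23.0) lay above pre-transplant replicate 2 (17.8). That call was lost under 6 alternatives, among them the offset (-0.53), and without 1 of 4 libraries. These were TCF-1 cKO pre-transplant replicates 1 (-1.504) and 3 (-0.80) and day 7 replicates 2 (-1.22) and 3 (-1.30). In WT cells the log2 fold change between stages was 0.64 (standard error 0.73, edgeR adjusted p = 0.610). The interaction of -2.39 (standard error 0.99, edgeR adjusted p = 0.283) was the largest of the 10 genes, and passed without the library labelled WT day 7 replicate 3 (-2.86, adjusted p = 0.0745).

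The genotype difference at day 7 moved with GC content over all genes, and the 2 members called lower are among the 4 richest in GC. From the 10% of genes lowest in GC content to the 10% highest the median log2 fold change went from 0.67 to -2.67 (Spearman's rho = -0.58 over 16026 genes, which are not independent). The GC content of the transcripts was 52.9% for Dnmt1 and 59.0% for Hdac7, beside 53.5% for Dnmt3a and 55.9% for Tet3, and 41.6% to 44.3% for Suz12, Tet2, Ezh2 and Hdac2. Of the 4 richest Dnmt1, Dnmt3a and Hdac7 had negative values and Tet3 had 0.12, and the 4 poorest had 0.61 to 0.78. Hdac1 and Hdac3, between these in GC content, had 0.91 and -0.77. Within the libraries, the level of the GC-richest 10% of genes less that of the GC-poorest 10%, on the log2 scale about each gene's mean, was 1.45, 2.24 and -0.06 in WT replicates 1 to 3 and -0.66, -0.73 and -1.04 in TCF-1 cKO replicates 1 to 3 at day 7. With each library's trend on GC content and length removed as an offset, 3 of 16026 genes and 0 members passed. Without the library labelled WT replicate 3, 5299 of 18183 genes passed, and 3 of the 10 members (Dnmt1, Dnmt3a and Hdac7) did. Without any 1 of the other 5 libraries 0 to 2 genes and 0 members passed. Before transplant the same medians went from 1.39 to -0.57 (rho = -0.30). In the stage comparisons rho was 0.17 in WT and -0.13 in TCF-1 cKO cells.

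**Figure D3:**
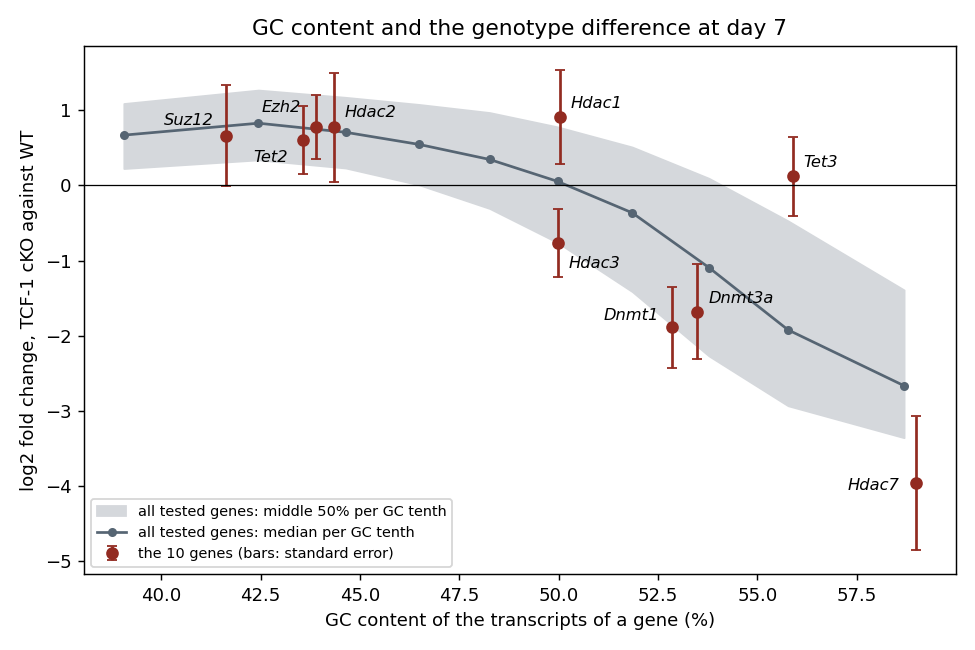
Log2 fold change of TCF-1 cKO against WT at day 7 against the GC content of a gene's transcripts (%), with red points for the 10 genes (bars of 1 standard error) and a line and band for the median and middle 50% of all tested genes per 10% of genes by GC content. The line runs from 0.67 at the lowest to -2.67 at the highest GC content, and Hdac7 at 59.0% GC has the lowest value of the 10 genes.

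With library totals in place of TMM the median over all genes shifted from -0.30 to -1.25 in the WT stage comparison, from -0.29 to -1.89 in the TCF-1 cKO stage comparison, from 0.05 to 0.39 before transplant and from 0.15 to 0.54 at day 7. On that scale Dnmt1 (-0.64) and Hdac7 (-0.52) in WT cells and Hdac2 (-0.15) in TCF-1 cKO cells had the opposite sign between stages from that given above. Ezh2 (1.54) and Hdac1 (1.76) in TCF-1 cKO cells were still called higher, and Tet3 was called lower in both genotypes.

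Transcripts that retain an intron made up less of Hdac1 and Hdac3 at day 7 than before transplant, as they did in the median over 4365 genes. In the GENCODE annotation 6 of the 7 transcripts of Hdac1 retain an intron. These took 27.5%, 52.0% and 29.1% of the gene's TPM, an abundance scaled for length and depth, in WT and 28.2%, 42.6% and 24.3% in TCF-1 cKO libraries before transplant. At day 7 they took 2.44%, 12.7% and 3.13% in WT and 3.48%, 3.91% and 2.35% in TCF-1 cKO libraries. The share was thus lower in every day 7 library than in every pre-transplant library of its genotype (exact permutation test, two-sided, p = 0.1, which 3 libraries against 3 cannot go below). Of all genes with such transcripts 30.4% in WT and 34.0% in TCF-1 cKO cells showed the same lack of overlap downwards, and the median share over 4365 genes went from 10.1% to 18.9% before transplant to 2.38% to 5.28% at day 7. Hdac3 went the same way, from 25.1%, 21.3% and 17.6% to 0.47%, 0.00% and 0.64% in WT and from 5.48%, 9.94% and 16.6% to 3.96%, 5.14% and 0.25% in TCF-1 cKO libraries. Suz12 did so in TCF-1 cKO libraries alone, from 39.6%, 25.7% and 13.7% to 0.0% in each. In WT cells the shares of Dnmt3a and Tet3 moved the opposite way without overlap, as for 2.66% of genes, from 3.62% to 7.36% before transplant to 14.6% to 31.1% at day 7 for Dnmt3a and from 0.47% to 1.63% to 6.16% to 17.8% for Tet3 (exact permutation test, p = 0.1 each). In TCF-1 cKO cells both overlapped between the stages.

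Other members had higher shares before transplant in TCF-1 cKO than in WT cells, as 15.3% of genes did without overlap and 3.67% did in the other direction. For Dnmt3a the shares were 3.62%, 7.36% and 5.05% in WT and 27.97%, 37.9% and 15.7% in TCF-1 cKO libraries. For Tet3 they were 0.70%, 0.47% and 1.63% in WT and 20.6%, 39.5% and 5.94% in TCF-1 cKO libraries. Hdac3 alone of the 10 genes had lower shares in all 3 TCF-1 cKO libraries. Dnmt1's main transcript of this kind, Dnmt1-206 of 693 bases, stood at 6.70, 23.3 and 12.9 TPM in WT and 63.7, 64.6 and 25.03 TPM in TCF-1 cKO libraries before transplant, and at 0.92 to 5.58 TPM in the 6 day 7 libraries. At day 7 Tet2 had shares of 31.6%, 19.3% and 27.3% in WT and 80.7%, 84.4% and 98.9% in TCF-1 cKO libraries, and Hdac7 was the other member whose shares were all higher in TCF-1 cKO cells, as for 13.3% of genes. The TCF-1 cKO libraries before transplant are also the shallow ones, and the part of depth in these shares was not tested.

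A transcript that differed between genotypes, Hdac1-205, was chosen after its values were seen. It stood at 25.6, 24.6 and 25.3 TPM in WT and at 0, 2.29 and 0.33 TPM in TCF-1 cKO libraries before transplant, and at 0 to 2.27 TPM in all day 7 libraries. A highest TCF-1 cKO value under 0.1 times the lowest WT value was found for 1.14% of 42923 transcripts, and for 2 of the 44 member transcripts with a mean of at least 1 TPM, Hdac1-205 and Hdac7-206. The main coding transcript, Hdac1-201, was at 145, 68.2 and 130.2 TPM and at 104, 95.7 and 113 TPM in the same libraries. Hdac1-205 begins inside intron 5 (first exon chr4:129522363-129522790), the intron that Hdac1-202 retains. Pseudoalignment divides reads among overlapping transcripts, and no junction counts were analysed here. The edges of the introns that Hdac1-202 and Dnmt1-206 retain are printed from GRCm38 on the strand of the gene, with the first and last 2 bases of the intron in capitals. The Hdac1 intron is chr4:129522505-129522962 and the Dnmt1 intron chr9:20936622-20937161.
Hdac1 intron 5 donor, chr4:129522945-129522972 (-): aactgctaaaGTatgcctgcctggcctt
Hdac1 intron 5 acceptor, chr4:129522495-129522522 (-): atcaccttctgatcctAGgtaccaccag
Dnmt1 intron 7 donor, chr9:20937144-20937171 (-): acacagagagGTaagaatccatgtagtc
Dnmt1 intron 7 acceptor, chr9:20936612-20936639 (-): ttctactttacctgacAGtggtgctgca
All 4 edges carry the GT and AG that splicing uses.

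**Figure D4:**
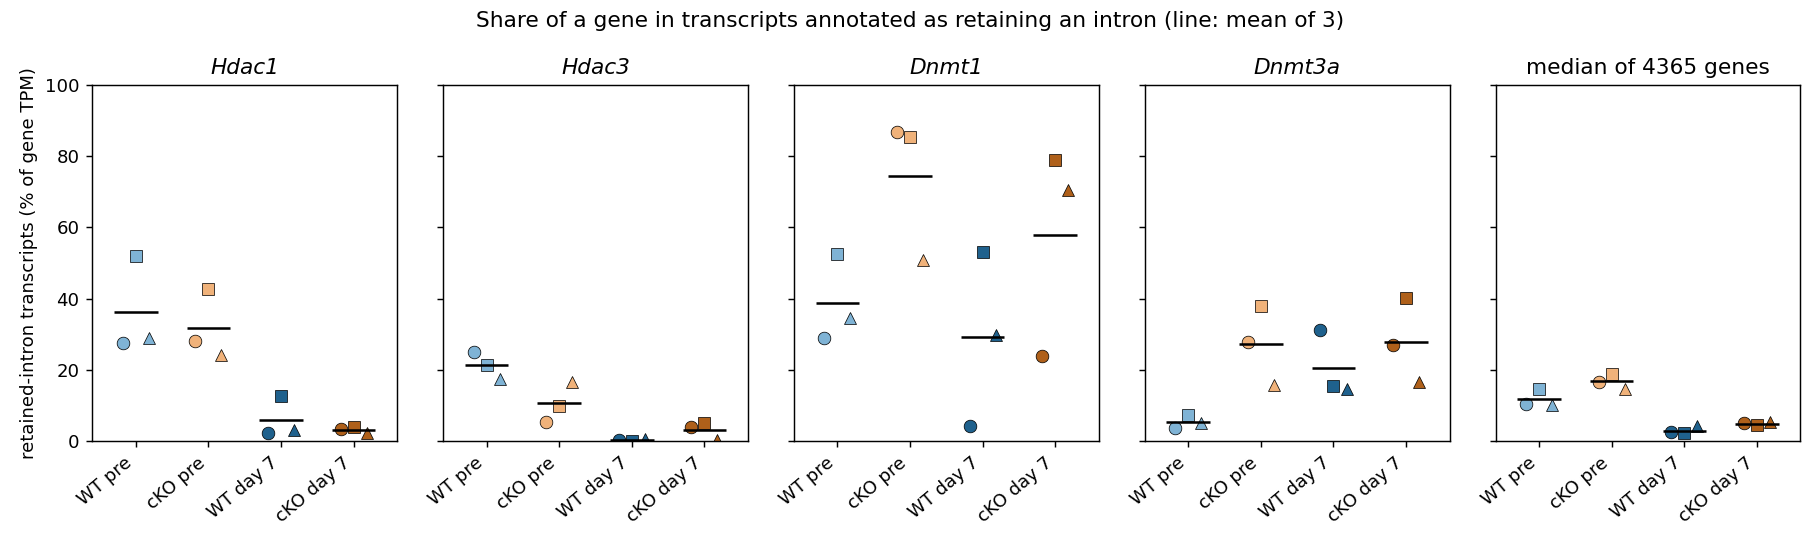
Share of a gene's TPM (%) in transcripts annotated as retaining an intron, in each library by group, for 4 members and for the median of 4365 genes, with a bar at the mean of 3. Hdac1 and Hdac3 fall below their pre-transplant range in every day 7 library of the same genotype, while Dnmt1 spreads from 4.22% to 79.0% at day 7.

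Compared per length, Hdac1 was the most abundant of the 10 genes in 11 of the 12 libraries. Its TPM was 175 ± 29.8 (SD, n = 3) in WT and 154 ± 11.5 (SD, n = 3) in TCF-1 cKO cells before transplant and 163 ± 128 (SD, n = 3) and 325 ± 45.0 (SD, n = 3) at day 7. The exception was WT day 7 replicate 2, where Hdac7 held 40.1 and Hdac1 32.4 TPM. In 3 of the groups Hdac1 did not overlap the next gene, which was Hdac3 in WT before transplant (45.1 TPM), Dnmt1 in TCF-1 cKO before transplant (66.8 TPM) and Ezh2 in TCF-1 cKO at day 7 (33.1 TPM). Below it most neighbours overlapped. Suz12 was lowest before transplant, at 2.15 ± 1.04 and 7.69 ± 5.51 TPM (SD, n = 3 each), and Tet3 at day 7, at 0.39 ± 0.31 and 0.46 ± 0.05 TPM (SD, n = 3 each). Tet3 at day 7 in TCF-1 cKO cells and Suz12 before transplant in WT cells did not overlap the gene above them. TPM carry no TMM factors, and not every member called higher between stages rose on that scale. In TCF-1 cKO cells mean TPM went from 7.69 to 3.20 for Suz12, 31.1 to 22.4 for Hdac2 and 36.0 to 32.8 for Hdac3. Ezh2 went from 32.4 to 33.1 there, and Hdac1 rose. In WT cells Ezh2 went from 17.8 to 18.2 and Hdac3 from 45.1 to 49.9.

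**Figure D5:**
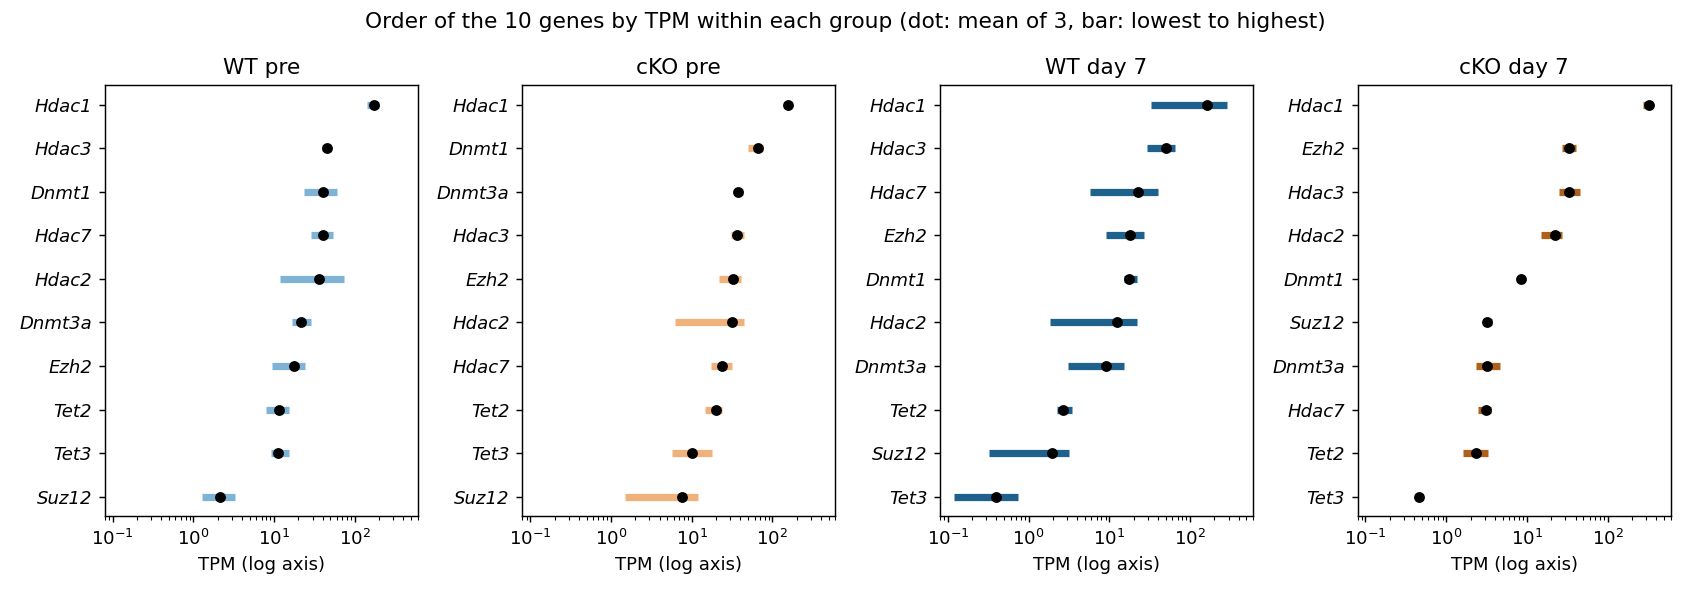
TPM of the 10 genes (log axis) within each group, in order of the mean of 3 libraries (dot), with bars from the lowest to the highest library. Hdac1 heads every group, with means of 154 to 325 TPM, and its bar at day 7 in WT cells reaches down to 32.4 TPM.

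The other genes of these pathways were counted from lists that hold the members too. Of the DNA methylation list, 16 genes with UHRF1, TET, MBD and repair genes, 15 were tested between stages in WT cells, with 1 higher and 3 lower. In TCF-1 cKO cells 3 were higher and 3 lower. These were 26.7% and 37.5% of the tested genes of the list, beside 20.0% and 36.5% of all genes. Mbd2, a reader of methylated DNA, was the largest rise among the genes of this list, at 3.83 (standard error 0.44, edgeR adjusted p = 2.9e-04) in TCF-1 cKO cells. Of the 11 PRC2 genes 7 were higher and 3 lower between stages in TCF-1 cKO cells, beside 19.7% and 16.8% of all genes, and 2 were higher and 3 lower in WT cells, beside 9.7% and 10.3%. The histone chaperone Rbbp4, shared by PRC2 and the HDAC1 complexes, was among the higher ones in both, at 2.25 (standard error 0.41, edgeR adjusted p = 0.00309) in TCF-1 cKO and 1.51 (standard error 0.48, edgeR adjusted p = 0.0607) in WT cells. The PRC2 accessory gene Phf1 was lower in both, at -4.17 and -1.56 (edgeR adjusted p = 0.00896 and 0.0896). Of the 11 HDAC genes 3 were higher and 4 lower in TCF-1 cKO and 1 higher and 1 lower in WT cells. These were 63.6% and 18.2% of the list, beside 36.5% and 20.0% of all genes. Hdac9, like Hdac7 of class IIa, was lower in both, at -2.18 (edgeR adjusted p = 0.0121) and -2.90 (edgeR adjusted p = 0.0229). Of the 20 proliferation genes 18 were higher in WT and 17 in TCF-1 cKO cells, beside 9.7% and 19.7% of all genes, and 0 were lower in either. Mki67 went from 12.3 to 47.5 normalized CPM before transplant to 47.05 to 580.3 at day 7, and the part of proliferation in the stage differences of the members was not tested.

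Between genotypes at day 7 the called genes of every list were lower ones. They were 2 of 15 tested DNA methylation genes (Dnmt1 and Uhrf1), 2 of 11 PRC2 genes (Phf1 and Phf19), 3 of 11 HDAC genes (Hdac5, Hdac7 and Hdac10), 5 of 20 PRC1 genes and 8 of 25 genes of HDAC complex partners, beside 15.4% of all genes. The 20 proliferation genes, which include the replication factors Mcm2 and Mcm3, held 8 lower ones and 0 higher, with -2.60 for Mcm2 and -2.51 for Mcm3 (edgeR adjusted p = 0.0459 and 0.0448), and the part of proliferation in the lower Dnmt1 and Uhrf1 levels was not tested. After the offset 0 genes of these lists passed. Hdac5, of class IIa as well, stood at -3.51 on the log2 scale (edgeR adjusted p = 0.0448), and at -0.57 after the offset. Before transplant and in the interaction 0 genes of any list passed.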

How the data were processed

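Bulk RNA-seq of sorted mouse CD8 T cells was analysed from transcript tables of 12 libraries, prepared per the labels with the SMARTseq HT and Nextera XT kits. The authors had quantified the reads with kallisto 0.46.2, and the deposited files hold, for 117497 transcripts, estimated counts (not normalized) and TPM (scaled to transcript length and to the same sum in each library). The submitters' processing notes list mm9, and the transcript release is not given in the sources used here. Of the transcripts 116374 were joined to 35855 genes of GENCODE (M21, GRCm38), and these held 99.5% to 99.7% of the counts.

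Estimated counts were summed per gene and rounded. Each comparison was fitted over all genes with edgeR 4.0.16 (R 4.3.3) by the quasi-likelihood test with filterByExpr, TMM factors and Benjamini-Hochberg adjustment at an FDR of 0.1, on the 6 libraries compared or, for the interaction, on 12. Fold changes are from these fits and normalized CPM from 1 TMM scaling of 12 libraries, so the sizes can differ. Replicates were checked and were not duplicates (Spearman's rho 0.841 to 0.910 within groups, chi-square per degree of freedom 22.5 to 647). Separate mice are not stated for them, so p-values measure the spread between these libraries. The floor of 3 counts covers counting error only.

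Alternatives were DESeq2 1.42.0 (size factors, Wald test), library totals, no filter, limma-voom (limma 3.58.1), counts scaled from TPM, the replicate number as a block, an offset removing each library's loess trend on GC content and length (span 0.4), a fit over 12 libraries, and leaving out each library. Protein-coding transcripts alone were added after the data were seen. All 10 members were named, and of each list up to 4 further genes with the smallest p past the FDR, or up to 2 where none passed, plus Ezh1, Eed, Dnmt3b, Tet1, Uhrf1 and Mki67 and the gene most like each member. The members and lists were chosen with earlier results of these data known. Genes in lists and paralogs such as Hdac1 and Hdac2 can share reads, which the pseudoaligner divides. The libraries do not mark strand.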

Additional observations from a re-analysis of the deposited data

How the results depend on the processing

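Of the member calls, Tet3 in both stage comparisons (-4.80 to -3.44 in WT, -3.87 to -1.24 in TCF-1 cKO) and Ezh2 (1.54 to 4.07) and Hdac1 (1.76 to 3.68) in the TCF-1 cKO stage comparison passed under every alternative and without any single library. For the calls that were lost the cause was not tested. The TCF-1 cKO libraries before transplant were the shallowest, with 3 counts worth up to 0.667 CPM. Without single libraries the number of members called was 0 to 1 before transplant, 0 to 3 at day 7, 1 to 4 between stages in WT, 5 to 7 between stages in TCF-1 cKO and 0 to 2 in the interaction.

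The member count of 2 at day 7 became 1 with library totals, and 0 with the offset, alone or with the replicate block. That of 4 in WT became 2 with library totals or protein-coding transcripts alone and 1 with counts scaled from TPM. That of 8 in TCF-1 cKO became 5 with the offset or protein-coding transcripts alone and 4 in the fit over 12 libraries. That of 0 in the interaction became 1 with DESeq2's Wald test. Over all genes, the count of 7 before transplant became 3 with DESeq2 size factors or the 12-library fit, 12 with library totals, 619 with no filter, 2 with limma-voom, 1455 with DESeq2's Wald test, 0 with protein-coding transcripts alone and 0 to 2739 without single libraries. The 2868 at day 7 became 4525 with DESeq2's Wald test, 3 with the offset and 0 to 5299 without single libraries. The 3362 in WT ranged from 1579 to 4156 and the 6774 in TCF-1 cKO from 5242 to 7114 without single libraries, and the latter was 12268 with library totals. The 1 in the interaction became 5 with library totals, 580 with no filter, 1713 with DESeq2's Wald test, 2 with the offset, 0 with protein-coding transcripts alone and 0 to 2093 without single libraries. With library totals the calls split into 717 higher and 4136 lower genes in WT, 1660 and 10608 in TCF-1 cKO and 495 and 1726 at day 7, against 1628 and 1734, 3660 and 3114, and 403 and 2465 with TMM.

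Replicate numbers are shared by the groups, but the deviations of same-numbered libraries from their group means correlated at only -0.257 to 0.115, so the numbers were not taken to pair the libraries. With the replicate block 0 genes passed before transplant and 0 in the interaction. With the block and the offset together 11, 2 and 187 genes passed before transplant, at day 7 and in the interaction. The block alone ended the calls of Hdac3 in WT (1.33, adjusted p = 0.109) and Hdac7 in TCF-1 cKO (-1.39, adjusted p = 0.115) between stages and changed no other member call.

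Values that changed sign were, with 1 exception, of members not called. Before transplant these were Dnmt1 with counts scaled from TPM (0.48), Dnmt3a with no filter (-0.073), Tet2 with DESeq2 size factors (-0.0018), no filter (-0.29), the Wald test (-0.0019), the offset (-0.26), block and offset (-0.20), the 12-library fit (-0.17) and protein-coding transcripts alone (-0.27), and Ezh2 with no filter (-0.27), the offset (-0.043), the 12-library fit (-0.15) and protein-coding transcripts alone (-0.26). At day 7 they were Tet2 with counts scaled from TPM (-0.54), the offset (-0.24), block and offset (-0.23) and protein-coding transcripts alone (-0.49), and Tet3 with counts scaled from TPM (-0.0058) and protein-coding transcripts alone (-0.28). Between stages in WT they were Dnmt1 with library totals (-0.64), Dnmt3a with the offset (0.028) and block and offset (0.045), and Hdac7 with library totals (-0.52) and block and offset (-0.047). Between stages in TCF-1 cKO they were Dnmt1 with the offset (0.35) and block and offset (0.25). There Hdac2, which was called, had -0.15 with library totals. In the interaction they were Tet2 with counts scaled from TPM (-0.54) and protein-coding transcripts alone (-0.020), Suz12 with library totals (-0.26) and counts scaled from TPM (-0.40), and Hdac3 with library totals (-0.28), no filter (-0.063), the offset and block and offset (-0.026 each) and protein-coding transcripts alone (-0.41).

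Without single libraries, values that crossed 0 ranged from -0.10 to 0.60 (Dnmt3a), -0.30 to 0.27 (Tet2), -0.29 to 0.64 (Ezh2) and -0.95 to 0.48 (Hdac2) before transplant, from -0.12 to 0.19 (Tet3) at day 7, from -0.63 to 0.10 (Dnmt3a), -1.01 to 0.58 (Hdac2) and -0.26 to 1.35 (Hdac7) between stages in WT, from -0.79 to 0.30 (Dnmt1) between stages in TCF-1 cKO, and from -0.54 to 1.08 (Suz12) and -0.19 to 0.32 (Hdac3) in the interaction.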

Other observations

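The enzymes that oppose the members and the NAD-dependent deacetylases were counted as well. Of 11 acetyltransferases and histone demethylases 4 were lower and 0 higher between stages in WT cells, while in TCF-1 cKO cells 4 fell and 1 rose, beside 10.3% and 16.8% of all genes lower. Ep300, the acetyltransferase p300, was lower in both, with log2 fold changes of -2.63 in WT and -2.30 in TCF-1 cKO cells. Kdm6b, a demethylase that removes the PRC2 mark, was lower in TCF-1 cKO cells (-2.74). Of 7 sirtuins 5 were lower in TCF-1 cKO than in WT cells at day 7, beside 15.4% of all genes. The list median of -2.28 was -0.63 after the offset on GC content and length, where 0 of them passed. Sirt6 had the lowest value among these, at -4.57. Of 20 PRC1 genes 2 fell in WT cells between stages, and in TCF-1 cKO cells 3 rose and 3 fell, with Cbx7 lower in both (-2.21 and -3.92). Of 25 partners of the HDAC complexes 1 rose and 1 fell in WT cells, and 3 rose and 6 fell in TCF-1 cKO cells. That is 8.0% and 36.0% of that list, again beside 20.0% and 36.5% of all genes.

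The gene whose log2 normalized CPM ran most like that of a member over the 12 libraries was Cyb5r1 for Dnmt1 (Pearson's r = 0.909), Gna11 for Dnmt3a (0.917), Mob3b for Tet2 (0.978), Dnajb6 for Ezh2 (0.989), Platr25 for Suz12 (0.968), Prelid3b for Hdac1 (0.990), Zfp748 for Hdac2 (0.953), Prkar1a for Hdac3 (0.983) and Arhgap45 for Hdac7 (0.984). These values are a description over libraries that fall into 4 groups.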
